A study of Mus musculus with 217 samples.

Results

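Granulosa cells of old mice carrying the Tet2 knockout label were set against those of young mice with the same label. The comparison was chosen by the labels alone and rests on 6 of the 217 libraries of the series, 3 old and 3 young, out of 18 granulosa pools. The old mice were 10 months old and the young mice 2 months old. Both groups had a C57BL6/129 background, were labelled Tet2 knockout and received no resveratrol. The old mice belonged to the control arm, which drank water with DMSO, the solvent of resveratrol, from the age of 2 months. The young mice were taken at the age at which solvent began, so they had little or no time on it. Months on solvent and age therefore cannot be told apart. Each mouse received 5 IU of pregnant mare serum gonadotropin (PMSG), and 46 h later the visible follicles were punctured to release the granulosa cells. Oocytes were held back on a 40 µm strainer. Libraries were made by Smart-seq2, which amplifies full-length cDNA from very small amounts of polyadenylated RNA, and read as pairs of 150 bp. The design text gives 500 cells per pool and the protocol 50. The allele and the deleted part of Tet2 are not given in the sources used here. No animal is named for any pool, and a p-value therefore covers only variation among these libraries, which may be technical.

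Granulosa cells surround the oocyte, proliferate under follicle-stimulating hormone, secrete inhibin and oestradiol, and turn to progesterone synthesis as they luteinize. Tet2 encodes a dioxygenase that oxidises 5-methylcytosine in DNA, and loss of TET2 in blood cells is known for its effect on the growth and inflammatory activity of leukocytes. Ovaries of ageing mice are known to accumulate leukocytes, and granulosa pools released by puncture can hold blood and immune cells beside granulosa cells.

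Depth differed within the young group. The old libraries held 12210492, 12121306 and 20537935 counts and the young libraries 749172, 11595710 and 722075 counts, so young replicates 1 and 3 were shallow and young replicate 2 was as deep as the old ones. A single count stood for 1.38 CPM (counts divided by the scaled library total and multiplied by 1e6) in young replicate 1, 0.0795 CPM in young replicate 2 and 1.37 CPM in young replicate 3. A gene without a count could still be present at up to 4.13, 0.239 and 4.09 CPM in those libraries, by a limit of 3 counts that covers counting error only. Thinned to 470647 counts each, the old libraries held 14357 to 14479 detected genes and the young libraries 13320 to 14052. Rank correlations over genes were 0.953 to 0.975 between old libraries and 0.935 to 0.943 between old libraries and young replicate 2. They were 0.876 to 0.898 between young libraries. Values of the genes that results turn on are therefore given library by library. Fits with the deep young library alone have a single young library, which is assumed to vary like the other groups, so calls kept or lost there are a description of that library.

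The labels were checked first. Tet2 measured 21.5, 13.5 and 11.9 CPM in the old libraries, against 8.26, 10.7 and 16.4 CPM in the young libraries. The groups overlapped and did not differ past the threshold (log2 0.45, SE 0.34, adjusted p = 0.516). Wild-type pools held 11.6 ± 1.63 CPM when old and 8.08 ± 3.81 CPM when young (SD, n = 3 each), so Tet2 RNA over the whole gene was not lower in pools labelled knockout. Tet3 averaged 21.8 ± 2.11 CPM in old and 26.6 ± 9.45 CPM in young pools, and Tet1 3.34 ± 1.18 and 1.76 ± 1.53 CPM in old and young pools (SD, n = 3 each). Neither passed. Of 14 listed genes that write or erase DNA methylation 0 passed in edgeR, with 1 at an unadjusted p under 0.05 and 1 passing in DESeq2. Without young replicate 2 Idh1 rose (log2 0.64) and Dnmt3a fell (-1.03), and 1 gene fell without young replicate 1. With the deep young library alone Ogt and Idh1 stood at log2 -1.05 and -0.83, so the sign of Idh1 turned with the young library.

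The cell type label was checked against markers of granulosa cells and of other ovarian cells. Gja1, the gap junction protein of granulosa cells, held 911 to 1018 CPM in the old and 1028 to 1344 CPM in the young libraries. Fshr, the receptor of follicle-stimulating hormone, held 9.20 to 11.3 CPM in old and 8.19 to 16.5 CPM in young libraries, and Foxl2, a granulosa transcription factor, 5.22 to 6.33 CPM in old and 1.37 to 6.88 CPM in young libraries. Amh, a product of small growing follicles, was at or near 0, with 0 to 0.154 CPM in old and 0 to 2.73 CPM in young libraries. Cyp11a1, the first enzyme of steroid synthesis, reached 2277 to 3055 CPM in old and 1451 to 5135 CPM in young libraries. Theca markers summed to 57.5 to 78.9 CPM in old and 30.3 to 58.7 CPM in young libraries, and stromal markers to 230 to 422 CPM in old and 67.4 to 107 CPM in young libraries. Insl3 and Gli1 of the theca list, Col1a1, Lum and Des of the stromal list and Flt1 and Cldn5 of the endothelial list had no count in any young library. These genes were too low to be tested, and the reverse case was not counted for these lists. Summed over 13 endothelial markers the level was 18.6 to 26.8 CPM in old and 25.5 to 38.2 CPM in young libraries. Cyp19a1, the aromatase, was low in both groups, and its values are given below. Both groups thus held RNA of granulosa genes, with Gja1 and Cyp11a1 at high levels and Fshr and Foxl2 at low ones. Leukocyte, red blood cell and oocyte RNA is described beside the results it moves with.

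Of 17558 genes tested, 908 (5.17%) passed an adjusted p of 0.05 (edgeR's quasi-likelihood test with Benjamini-Hochberg adjustment), 719 (4.09%) higher and 189 (1.08%) lower in old pools. The median of all tested genes was 0.10 on the log2 scale under the main scaling and 0.00 under relative log expression scaling, which called 453 higher and 236 lower. The groups did not overlap for 698 of the 719 and for 95 of the 189, while over all tested genes 15.4% lay wholly above and 3.76% wholly below the young libraries. In wild-type pools, which share no library with these, 670 of the 719 had a log2 difference above 0 between old and young and 157 of the 189 one below 0, and those young pools were shallow too. The share of all tested genes with either sign in wild type was not counted. The wild-type median lay above 0 in each of the length classes described below. Higher genes stood above young replicates 1, 2 and 3 by a median log2 of 1.16, 1.18 and 1.19. Over all tested genes these medians were 0.345, 0.081 and 0.229, and the higher genes were chosen by a test on these libraries. For lower genes the medians were -1.57, -1.08 and -1.85. Leaving out 1 library at a time gave 339 to 1392 calls, with 339 without old replicate 1, 376 without old replicate 2, 412 without young replicate 3 and 1392 without young replicate 2. A fit on the 6 libraries alone, where the spread rests on fewer libraries, called 88 higher and 16 lower.

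**Figure D1:**
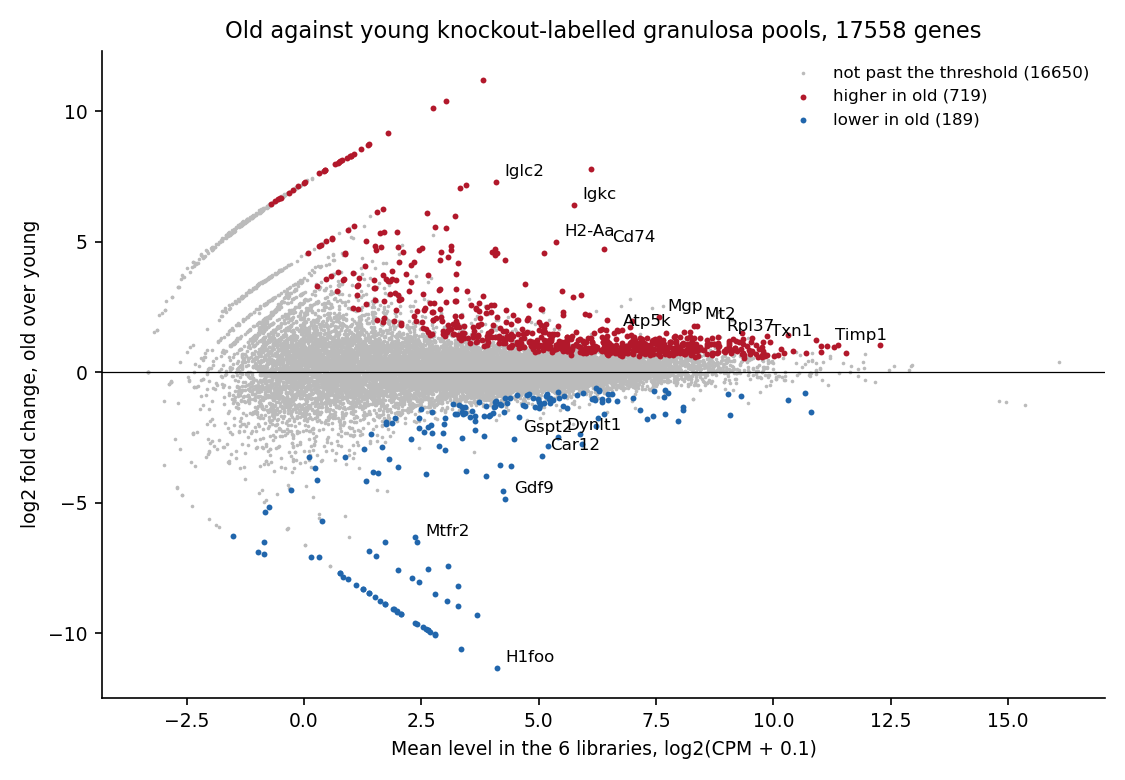
Each point is 1 of 17558 tested genes, with its mean level over the 6 libraries as log2(CPM + 0.1) on the horizontal axis and its log2 fold change, old over young, on the vertical axis. Red points (719) were higher and blue points (189) lower in old pools at an adjusted p under 0.05, and grey points did not pass; the rising lines of points at the left are genes with 0 to few counts in the young libraries.

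Genes of the protein synthesis machinery rose together. Of the 79 genes of cytosolic ribosomal proteins, 62 (78.5%) rose and 0 fell, against 4.09% higher over all tested genes. In 69 of the 79 every old library lay above every young one, against 15.4% of all tested genes. The summed level of the 79 genes was 61660, 60879 and 65349 CPM in the old libraries, against 39712, 33862 and 36656 CPM in the young libraries. Old pools thus gave 5.79% to 6.18% of their counts to these genes and young pools 3.67% to 3.85%, and the deep young library had the lowest share. The list's median log2 difference was 0.86 in the fit. It was 0.75, 1.07 and 0.82 against young replicates 1, 2 and 3 taken singly. Over all tested genes the medians against these libraries were 0.345, 0.081 and 0.229.

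Rpl37, a protein of the large ribosomal subunit on chromosome 15, held 714, 633 and 602 CPM in the old libraries, against 288, 202 and 288 CPM in the young libraries (log2 1.34, SE 0.20, adjusted p = 0.000711). Every old library lay above every young one. Rps27, of the small subunit, held 1524, 1266 and 1267 CPM in old libraries, against 650, 464 and 707 CPM in young libraries (log2 1.16, SE 0.18, adjusted p = 0.000932). Rps28 averaged 488 ± 31.2 CPM in old and 201 ± 52.9 CPM in young pools, and Rpl37a 920 ± 56.6 CPM in old and 383 ± 81.8 CPM in young pools (SD, n = 3 each). Among the members that did not pass, Rpl29 (log2 -1.75), Rps2 (-0.67) and Rps18 (-0.07) had values below 0. Rpl29 held 11.2, 11.5 and 18.3 CPM in old libraries, against 138, 6.28 and 10.9 CPM in young libraries, so its value turned with the young library. It was 1.09 with the deep young library alone and -2.47 without it (adjusted p = 0.00424), and Rps18 also turned, at 0.13 with the deep library alone. Ribosomal protein genes have many near-identical processed pseudogenes, so how reads were shared among copies makes single members uncertain. The count of rises was 53 with the deep young library alone, 55 without it, 39 without old replicate 1 and 39 without young replicate 3. It was 46 under the other scaling and 3 in the fit on the 6 libraries alone.

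The 250 bases before the start of Rpl37 are shown because ribosomal protein genes moved together and because such promoters are known for sites of ETS factors close to the start. The stretch lies at chr15:5116363-5116612 (plus strand, RefSeq, GRCm38.p6). Capitals mark matches on either strand to CCGGAAG (an ETS core, 23 bases before the start), CCAAT (101 bases before) and GGGCGG (a GC box, 146 and 7 bases before).
Rpl37: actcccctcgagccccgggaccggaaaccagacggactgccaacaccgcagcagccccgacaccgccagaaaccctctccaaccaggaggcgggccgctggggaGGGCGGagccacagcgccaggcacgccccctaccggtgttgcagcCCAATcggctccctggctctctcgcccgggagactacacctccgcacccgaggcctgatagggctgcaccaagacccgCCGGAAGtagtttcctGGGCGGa
Within such windows CCGGAAG occurred in 16 of the 50 ribosomal protein promoters at hand (32%), against 7.09% of all 22862 promoters and 14% of the 8058 promoters of tested genes. A match describes letters only and says nothing of binding.

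Genes of oxidative phosphorylation rose as well. In complex I, which takes electrons from NADH, 22 of 36 tested genes rose and 0 fell (61.1%, with 4.09% higher over all tested genes). In complexes II to IV 14 of 25 rose and 0 fell (56.0%), and in ATP synthase, which makes ATP from the proton gradient, 9 of 17 rose and 0 fell (52.9%). Medians on the log2 scale were 0.77, 0.86 and 0.79 for these lists. Summed levels of complex I were 6873, 6433 and 6646 CPM in old libraries, against 4970, 3941 and 3526 CPM in young libraries, without overlap.

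Atp5k, a small subunit of ATP synthase, held 169, 142 and 118 CPM in old libraries, against 68.8, 37.5 and 51.9 CPM in young libraries (log2 1.51, SE 0.22, adjusted p = 0.000698). Cox6c, a subunit of cytochrome c oxidase, held 490, 441 and 358 CPM in old libraries, against 184, 189 and 195 CPM in young libraries (log2 1.18, SE 0.19, adjusted p = 0.00123). Ndufa3 of complex I held 273, 218 and 228 CPM in old libraries, against 144, 78.6 and 108 CPM in young libraries (log2 1.15, SE 0.21, adjusted p = 0.00274). In all 3 genes the lowest old library exceeded the highest young one. Uqcrh of complex III averaged 359 ± 41.7 CPM in old and 171 ± 22.7 CPM in young pools (SD, n = 3 each; log2 1.08), and Usmg5, a small protein of the ATP synthase complex, 405 ± 109 CPM in old and 139 ± 43.9 CPM in young pools (log2 1.55). Not every subunit rose. Atp5a1 and Atp5b, the alpha and beta subunits of ATP synthase, had log2 values of -0.04 and -0.05, the succinate dehydrogenase flavoprotein Sdha -0.41, and Ndufs1 of complex I -0.03, and none of these 4 genes, picked after their values were seen, passed. Complex I counted 14 rises with the deep young library alone, complexes II to IV 13 and ATP synthase 8. Without old replicate 1 the counts were 6, 7 and 5, without young replicate 3 they were 8, 9 and 5, and in the fit on the 6 libraries alone 0, 0 and 2. Without old replicate 2 complex I counted 11 and without the deep young library 13, and the other scaling gave 11, 10 and 8.

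The promoter of Atp5k, at chr5:108434400-108434649 (minus strand, RefSeq, GRCm38.p6), is shown for a pair of overlapping matches to GCATGCG, the core of the site of NRF1, a factor known for nuclear genes of the respiratory chain. Capitals mark the matches on both strands, 49 and 48 bases before the start.
Atp5k: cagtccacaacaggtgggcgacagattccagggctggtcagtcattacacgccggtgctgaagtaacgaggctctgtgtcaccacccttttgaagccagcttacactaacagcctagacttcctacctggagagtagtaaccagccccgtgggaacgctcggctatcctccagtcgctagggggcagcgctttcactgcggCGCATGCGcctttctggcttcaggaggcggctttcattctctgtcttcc
GCATGCG occurred in 9 of 59 respiratory promoters (15.3%), against 3.04% of all promoters and 5.8% of those of tested genes.

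Mitochondrial ribosomal proteins moved less. Of 77 tested genes 12 rose and 0 fell (15.6%, with 4.09% higher over all tested genes), with a median log2 of 0.43, and 3 rose without each of old replicate 1, old replicate 2 and young replicate 3. Mrps36 averaged 70.6 ± 4.26 CPM in old and 26.8 ± 3.67 CPM in young pools (SD, n = 3 each; log2 1.34, adjusted p = 0.00141). Of 31 proteasome subunits 3 rose and 0 fell (9.68%), Psmb1, Psma3 and Psmb2, and under the other scaling 0 did. That count was also 0 without old replicate 1, old replicate 2 or young replicate 3, and 5 without young replicate 1 or 2. Among 31 antioxidant enzymes 4 rose and 0 fell (12.9%). Txn1, thioredoxin, held 1404, 1300 and 928 CPM in old libraries, against 632, 515 and 502 CPM in young libraries (log2 1.14, SE 0.18, adjusted p = 0.00104). The old libraries all lay above the young ones. Mgst1 and Mgst3, membrane glutathione transferases, and Gpx1, glutathione peroxidase 1, rose by log2 0.98, 0.80 and 0.70, and each of these 3 calls was lost under the other scaling and without old replicate 1 or 2. The count of the list was 1 without each of those and 2 without young replicate 3.

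Exonic length moved with these results. Genes higher in old pools had a median exonic length of 1855 bases, lower genes 3486 bases and all tested genes with a symbol and a length 4203.5 bases. When genes were divided into 4 equal classes of length, 10.1% of the shortest class, up to 2482 bases, were higher in old pools, against 3.47%, 2.18% and 1.02% of the next classes. The ribosomal and respiratory lists stood above their own length class. Within that shortest class their 147 genes had a median log2 of 0.77 with 57.8% higher, against 0.32 and 7.94% for the other genes there. Atp5k has an exonic length of 616 bases and Ndufa1 of 419, while Atp5b has 4237 and Sdha 4126. The part of length in the rise was not tested.

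**Figure D2:**
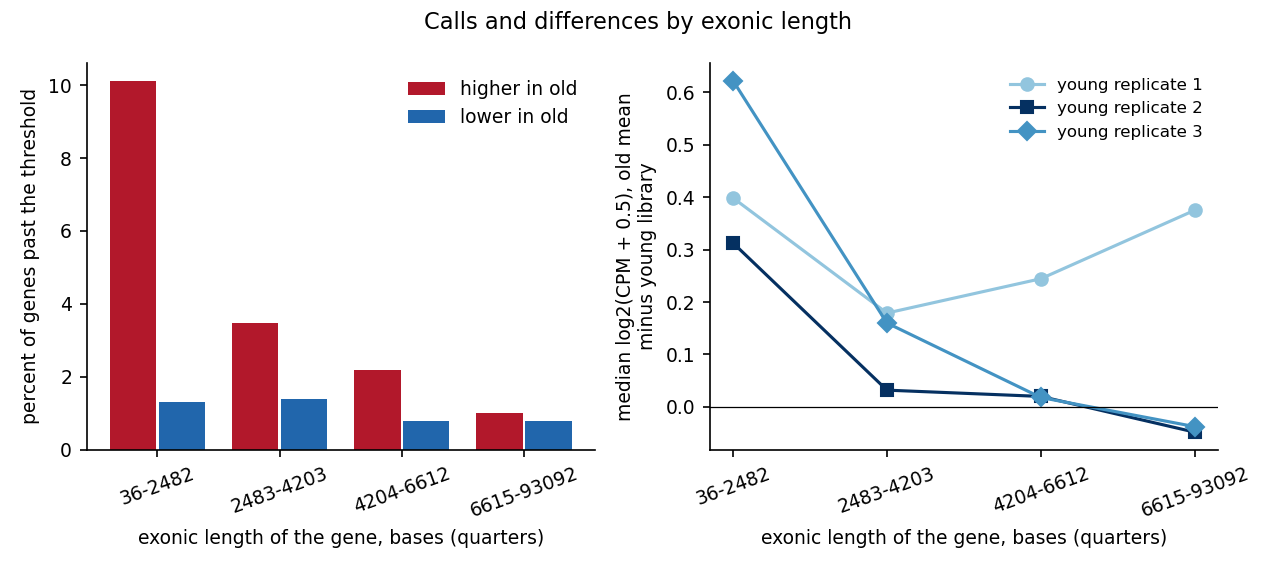
Genes are divided into 4 equal classes of exonic length in bases (horizontal axes). The left bars give the percent of genes past the threshold, higher (red) or lower (blue) in old pools, with 10.1% higher in the shortest class and 1.02% in the longest; the right lines give the median over genes of log2(CPM + 0.5), old mean minus each young library, which is highest in the shortest class for each of the 3 young libraries.

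Transcripts of B cells were present in the old pools and almost absent from the young ones. Of 11 tested genes of the B and plasma cell list, 9 rose and 0 fell (81.8%, with 4.09% higher over all tested genes). In bulk pools more cells of a type and more RNA per cell cannot be told apart. Of the 11, 9 had log2 values above 0, and the lowest value was -0.84. The full list summed to 3152, 3418 and 5021 CPM in old libraries, against 6250, 2167 and 4673 CPM in young libraries, which overlap. Its member Sdc1 was held by granulosa pools of both ages at over 2000 CPM. Without Sdc1 the list summed to 162, 257 and 520 CPM in old libraries, against 0, 12.96 and 0 CPM in young libraries. Each old library exceeded each young one more than 10-fold. Old wild-type pools summed to 129, 90.0 and 20.3 CPM and young wild-type pools to 3.04, 4.04 and 9.45 CPM. The defining B cell factor Pax5 and the plasma cell gene Jchain had no count in any young library. Both were too low to be tested, and the reverse case was not counted.

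Igkc, the constant part of the immunoglobulin kappa light chain on chromosome 6, held 59.2, 102 and 161 CPM in old libraries, against 0, 1.51 and 0 CPM in young libraries (log2 6.40, SE 0.95, adjusted p = 0.000711). Ighm, the heavy chain of IgM, held 23.1, 52.8 and 129 CPM in old libraries, against 0, 3.74 and 0 CPM in young libraries (log2 4.56, SE 1.05, adjusted p = 0.0121). Cd79a, which carries the signal of the B cell receptor, held 10.7, 22.4 and 65.0 CPM in old libraries, against 0, 1.83 and 0 CPM in young libraries (log2 4.49, SE 0.82, adjusted p = 0.00298). All old libraries lay above all young ones in these genes, and old replicate 3 was the highest. The lambda constant gene Iglc2 was higher by a ratio of 181 (counting interval 61.9 to 880), the lambda segment Iglj2 at least 85.1-fold and the kappa variable segment Igkv3-4 at least 172-fold, and Iglj2 lost its call without young replicate 2. Immunoglobulin segments have near-identical copies, so single segments are uncertain. Igkv3-4 held 78.0 CPM in old replicate 3 and 1.01 and 4.25 CPM in old replicates 1 and 2, so its fold rests on 1 library, and its call was lost without it and without young replicate 2 or 3. Ms4a1, a surface protein of B cells, and Mzb1, a chaperone of B cells, averaged 14.5 ± 4.67 and 7.67 ± 5.01 CPM in old pools, against 0.292 ± 0.505 and 0.106 ± 0.184 CPM in young pools (SD, n = 3 each). Fcmr, the receptor for IgM, rose by log2 5.58. With the deep young library alone 5 of the list rose, and without it 7. Thinned to 1 depth, 4 rose.

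MHC class II genes, by which B cells, macrophages and dendritic cells present antigens, rose in the same libraries. Of 10 tested genes 5 rose and 0 fell (50.0%, with 4.09% higher over all tested genes). All 10 lay above the young libraries without overlap, against 15.4% of all tested genes. H2-Aa, the alpha chain of the I-A molecule on chromosome 17, held 63.9, 77.6 and 102 CPM in old libraries, against 0, 3.26 and 0 CPM in young libraries (log2 4.98, SE 0.75, adjusted p = 0.000739). Cd74, the invariant chain that guides class II molecules, held 120.5, 172 and 200.2 CPM in old libraries, against 0, 8.83 and 0 CPM in young libraries (log2 4.72, SE 0.71, adjusted p = 0.000765). Both stood far above the limit that 0 counts allow in the shallow young libraries. H2-DMa, which helps to load the peptide, averaged 13.8 ± 1.65 CPM in old and 0.689 ± 1.19 CPM in young pools (SD, n = 3 each). H2-Ab1, the partner chain of H2-Aa, held 51.0, 53.3 and 97.3 CPM in old and 38.5, 35.1 and 32.8 CPM in young libraries and did not pass (log2 0.93, adjusted p = 0.0651). The counts of this list were 4 with the deep young library alone and 4 without it.

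The promoter of H2-Aa, at chr17:34287824-34288073 (minus strand, RefSeq, GRCm38.p6), is printed because class II promoters are known for a shared block that ends in a Y box, an inverted CCAAT. Capitals mark the match, which reads ATTGG on this strand, 48 bases before the start.
H2-Aa: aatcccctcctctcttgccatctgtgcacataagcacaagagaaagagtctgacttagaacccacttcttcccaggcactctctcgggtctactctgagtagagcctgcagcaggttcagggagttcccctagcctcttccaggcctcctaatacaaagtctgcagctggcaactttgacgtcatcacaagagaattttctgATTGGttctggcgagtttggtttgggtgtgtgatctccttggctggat
CCAAT on either strand occurred in 5 of 7 class II promoters (71.4%), 34.7% of all promoters and 36.6% of those of tested genes.

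Markers of all leukocytes rose too. Of 10 genes 5 rose and 0 fell (50.0%, with 4.09% higher over all tested genes). The sum of the 10 was 386, 441 and 481 CPM in old libraries, against 70.2, 162 and 101 CPM in young libraries. Cd52, a leukocyte surface glycoprotein, held 129, 115 and 117 CPM in old libraries, against 55.1, 24.2 and 47.8 CPM in young libraries (log2 1.63, SE 0.27, adjusted p = 0.00123). The groups did not overlap. Ptprc, the CD45 phosphatase, averaged 8.41 ± 2.74 CPM in old and 0.803 ± 0.716 CPM in young pools (SD, n = 3 each; log2 3.12, adjusted p = 0.0216). With the deep young library alone 1 of the 10 rose, and without it 6. The count was 3, 2 and 3 without old replicates 1, 2 and 3 and 1 without young replicate 3, and Ptprc did not pass without old replicate 1 or 2 or young replicate 2 or 3. T cell and NK cell markers summed to 54.9, 37.4 and 126.5 CPM in old libraries, against 110.1, 46.4 and 69.6 CPM in young libraries, which overlap, with a median log2 of -0.02. Of 7 tested genes only Cd2 rose (14.3%), and its call was lost in each fit without 1 library. The T cell receptor gene Trac held 6.33 to 9.44 CPM in old and 3.50 to 8.19 CPM in young libraries. Cd4, Cd8b1, Zap70, Nkg7 and Gzma had no count in any young library. They were too low to be tested, and the reverse case was not counted.

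Macrophage genes set the deep young library apart from the shallow ones. Of 18 tested genes 4 rose and 0 fell (22.2%, with 4.09% higher over all tested genes). The list's sum was 1841, 2244 and 1889 CPM in old libraries, against 607, 1271 and 566 CPM in young libraries. Lyz2, the lysozyme of macrophages and granulocytes, held 826, 1105 and 777 CPM in old libraries, against 1.38, 633 and 0 CPM in young libraries. Young replicate 2 thus stood near the old libraries while the shallow ones were at or near 0, and the difference did not pass (log2 1.98, SE 0.98, adjusted p = 0.270). Cd14, a receptor for lipopolysaccharide, likewise held 123, 168 and 156 CPM in old libraries, against 2.75, 79.5 and 0 CPM in young libraries (log2 1.98, adjusted p = 0.0471). The signalling adaptors Fcer1g and Tyrobp rose by log2 2.44 and 2.56. With the deep young library alone 0 of 18 passed in edgeR (6 at an unadjusted p under 0.05), and without it 10 did. The count was 2 without old replicate 1, 1 without old replicate 2, 2 without young replicate 1 and 1 without young replicate 3, and Cd14 lost its call when any library other than young replicate 2 was left out. The median of the list was 3.65 above young replicates 1 and 3 and 0.83 above young replicate 2 on the log2 scale. Over all tested genes the medians were 0.345, 0.081 and 0.229 above young replicates 1, 2 and 3. Of the listed genes Mrc1, Fcgr1, Cd163, Xcr1 and Flt3 had no count in any young library. They were too low to be tested, and the reverse case was not counted.

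Haemoglobin RNA, a sign of blood, was also higher in the old libraries. The 4 globin genes summed to 2208, 1951 and 1689 CPM in old libraries, against 267, 426 and 463 CPM in young libraries, without overlap. Of 5 tested red blood cell genes 0 passed in edgeR, where all 18 pools share an estimate of the spread, and 0 in DESeq2, with 4 at an unadjusted p under 0.05 and 4 passing in the fit on the 6 libraries alone. Hbb-bt had a log2 difference of 2.79 (SE 1.00, adjusted p = 0.109). In wild-type pools the globins summed to 3513, 3795 and 248 CPM when old and 519, 2.02 and 81.3 CPM when young. The part of blood in the leukocyte results was not tested.

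**Figure D3:**
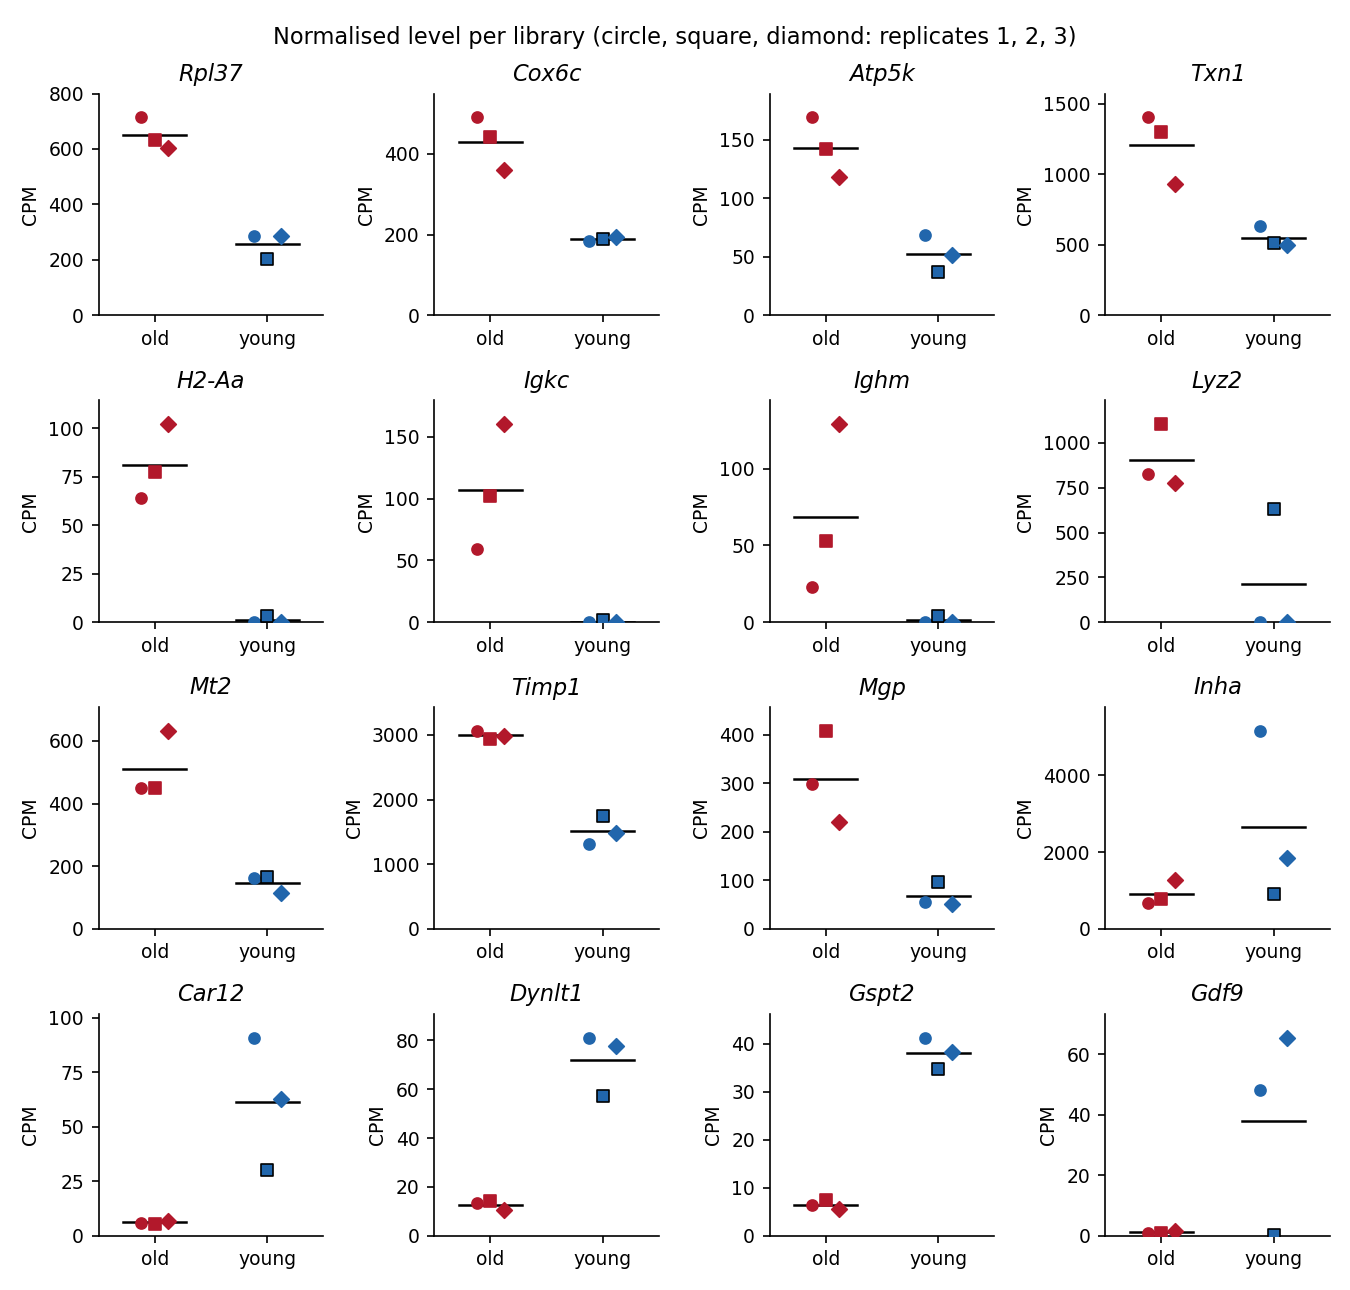
Each panel gives 1 gene's normalised level in CPM on a linear axis from 0, in the 3 old (red, left) and 3 young (blue, right) libraries, with circle, square and diamond for replicates 1, 2 and 3, a black outline on the deep young library and a bar at the group mean. Rpl37, Cox6c, Atp5k, Txn1, H2-Aa, Igkc, Ighm, Mt2, Timp1, Mgp, Car12, Dynlt1 and Gspt2 separate the groups in every library, while Lyz2 and Gdf9 have the deep young library near the old ones.

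Inflammatory signalling genes rose in part. Of 21 tested genes of senescence and inflammation 6 rose and 0 fell (28.6%, with 4.09% higher over all tested genes): Tnfaip3, Il6, Ccl2, Nfkbia, Cxcl1 and Cxcl2. The cytokine Il6 held 62.8, 58.9 and 36.6 CPM in old libraries, against 5.51, 19.6 and 8.19 CPM in young libraries (log2 1.93, SE 0.46, adjusted p = 0.0164). Tnfaip3, a brake on NF-kB, held 19.7, 14.6 and 12.3 CPM in old libraries, against 1.38, 4.29 and 2.73 CPM in young libraries (log2 2.14, SE 0.51, adjusted p = 0.0157). The groups did not overlap in either gene. The chemokine Ccl2 averaged 6.61 ± 3.86 CPM in old and 0.345 ± 0.597 CPM in young pools (SD, n = 3 each). With the deep young library alone 0 of 21 passed in edgeR (unadjusted p under 0.05 in 7 higher members and 1 lower member). The count of rises was 3 under the other scaling, 1 in the fit on the 6 libraries alone, 6 without the deep young library, 0 without old replicate 1, 0 without young replicate 3 and 2 without each of old replicate 2, old replicate 3 and young replicate 1. Trp53, the p53 gene of the same list, was at 126 ± 24.7 CPM in old and 199.6 ± 34.7 CPM in young pools (SD, n = 3 each) and did not pass (log2 -0.65, adjusted p = 0.0816). Of 22 immediate early genes only Atf3 rose (4.55%, near the 4.09% higher over all tested genes). Atf3 stood at log2 2.29 (adjusted p = 0.0185). Its call was lost without old replicate 1, old replicate 2 or young replicate 3 and with the deep young library alone. The list summed to 2786, 2806 and 3315 CPM in old libraries, against 3524, 1709 and 2986 CPM in young libraries, and the deep young library was the lowest. With that library alone Jun (log2 2.84) and Jund (1.28) rose, and without it 2 genes fell, Egr2 (-1.95) and Zfp36 (-1.59), these 4 genes being named after their values were seen. With no filter on low counts 6 rose and 2 fell. Of 21 interferon response genes 0 rose and 1 fell (4.76%, with 1.08% lower over all tested genes). It was H2-K1, a class I molecule (log2 -0.85, adjusted p = 0.0458). That call was lost without old replicate 1, old replicate 2 or young replicate 1.

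Genes of granulosa identity showed no common direction. Of 24 genes 2 rose and 2 fell (8.33% each, with 4.09% higher and 1.08% lower over all tested genes). The list's median log2 was -0.32, and its sum was 6590, 6620 and 6660 CPM in old libraries, against 10023, 5666 and 5382 CPM in young libraries. Nr5a2, the nuclear receptor LRH-1 needed for ovulation, held 143, 118 and 97.8 CPM in old libraries, against 20.6, 71.2 and 36.9 CPM in young libraries (log2 1.33, SE 0.30, adjusted p = 0.0104). Inha, the inhibin alpha subunit, held 678, 779 and 1286 CPM in old libraries, against 5163, 907 and 1857 CPM in young libraries (log2 -1.53, SE 0.39, adjusted p = 0.0227). The deep young library lay within the old range for Inha, and without young replicate 1 the call was lost. Fdx1, the electron carrier of steroid synthesis, rose (log2 0.74) and Amhr2, the receptor of anti-Müllerian hormone, fell (log2 -1.34). All 4 calls were lost with the deep young library alone and without old replicate 1. Without old replicate 2 only Nr5a2 kept its call of the 4, and without young replicate 1 Nr5a2 and Fdx1 did. Cyp19a1, the aromatase, held 2.78 to 4.72 CPM in old and 0 to 9.38 CPM in young libraries.

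Genes that change as granulosa cells luteinize moved both ways, and the metallothioneins led them. The list summed to 15363, 15103 and 16322 CPM in old libraries, against 10239, 17112 and 9591 CPM in young libraries, and the deep young library was the highest. Of 19 genes 4 rose, Mt2, Mt1, Timp1 and Parm1, and 2 fell, Ptgfr and Hsd3b1. That is 21.1% and 10.5% of the list, with 4.09% higher and 1.08% lower over all tested genes. Mt2, which binds zinc and copper, held 449, 451 and 632 CPM in old libraries, against 162, 167 and 115 CPM in young libraries (log2 1.78, SE 0.23, adjusted p = 0.000143). Mt1 held 1710, 1608 and 2261 CPM in old libraries, against 811, 736 and 534 CPM in young libraries (log2 1.42, SE 0.21, adjusted p = 0.000711). Timp1, an inhibitor of matrix metalloproteinases, held 3065, 2937 and 2986 CPM in old libraries, against 1312, 1748 and 1490 CPM in young libraries (log2 0.98, SE 0.17, adjusted p = 0.00167). These genes separated the groups without overlap, and the calls of Mt1 and Mt2 held in every alternative tried. Ptgfr, the receptor of prostaglandin F2 alpha, averaged 4.97 ± 2.55 CPM in old and 19.98 ± 14.13 CPM in young pools (SD, n = 3 each; log2 -2.21), with young replicate 1 at 4.13 CPM, and its call was lost without young replicate 2. Hsd3b1, an enzyme of progesterone synthesis, held 1222, 1099 and 1225 CPM in old libraries, against 2085, 2696 and 1441 CPM in young libraries (log2 -0.81, adjusted p = 0.0429), a call lost without any 1 old library and without young replicate 1 or 2. Star, which brings cholesterol to that pathway, and the first enzyme Cyp11a1 did not pass (log2 0.63 and -0.04). Cyp11a1 held 2277, 2681 and 3055 CPM in old libraries, against 1612, 5135 and 1451 CPM in young libraries, and the deep young library lay above the old ones while the shallow ones lay below. Its log2 value was -0.98 with the deep young library alone (adjusted p = 0.0129) and 0.78 without it (adjusted p = 0.0171).

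Of 15 ovulation and cumulus genes Ereg, an EGF-like ligand, and Cebpb, a transcription factor, rose (13.3%, with 4.09% higher over all tested genes). Under the other scaling 0 did. The count was also 0 without old replicate 1, old replicate 2, young replicate 2 or young replicate 3, and 4 without young replicate 1. Ereg held 115, 89.6 and 42.2 CPM in old libraries, against 30.3, 27.7 and 28.7 CPM in young libraries (log2 1.52, SE 0.42, adjusted p = 0.0335), without overlap. Its call held without old replicate 3, but was lost without each of the other 5 libraries and with the deep young library alone (adjusted p = 0.147). Mgp, matrix Gla protein, was the only 1 of 8 stromal genes to rise (12.5%). It held 299.5, 408.5 and 221 CPM in old libraries, against 56.4, 96.5 and 50.5 CPM in young libraries (log2 2.12, SE 0.34, adjusted p = 0.00103), and its call held in every alternative. Krt19, a keratin of the surface epithelium, held 2.696, 7.46 and 10.1 CPM in old libraries and no count in the young ones, at least 34.3-fold higher, and the call was lost without any 1 of the 6 libraries. Hspe1, a mitochondrial chaperonin, was the only 1 of 21 heat shock genes to rise (log2 1.15), or 4.76% of the list. Ebp of cholesterol synthesis and the survival factor Mcl1 rose by log2 0.73 and 0.92, as the only rises of their lists (4.17% and 5.56%). Both calls were lost under the other scaling and without old replicate 1, old replicate 2 or young replicate 3.

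**Figure D4:**
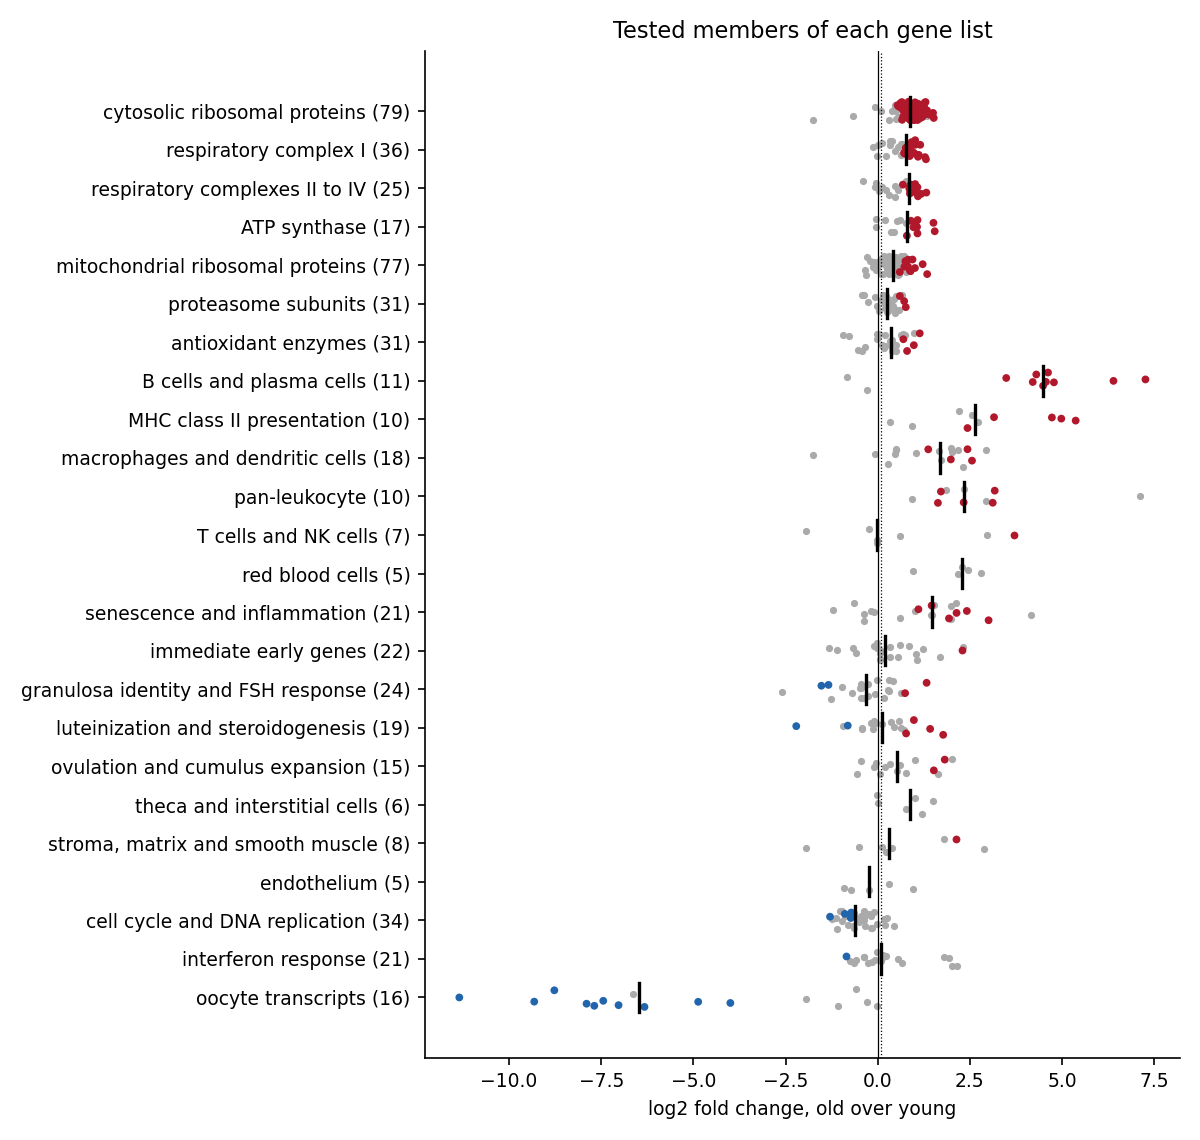
Each point is a tested member of a gene list (number of tested members in parentheses) at its log2 fold change, old over young; red points rose and blue points fell at an adjusted p under 0.05, grey points did not pass, black bars are list medians and the dotted line is the median of all genes at 0.10. Most members of the ribosomal and respiratory lists lie above 0 (76 of 79 ribosomal proteins), the B cell and MHC class II lists reach further right, and the oocyte list lies furthest left with a median of -6.48.

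Lists of other cells and of stress held few or no calls. Of 26 genes of endoplasmic reticulum stress 0 passed in edgeR, with unadjusted p under 0.05 for 4 higher and 2 lower genes and 1 falling in DESeq2. In edgeR 3 rose with the deep young library alone, Atf4, Hyou1 and Manf, and without young replicate 1 2 did. Of 6 tested theca genes and 5 tested endothelial genes 0 passed in edgeR and 0 in DESeq2, with 2 and 1 at an unadjusted p under 0.05.

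Oocyte transcripts made up the lower end of the comparison. Of 16 tested oocyte genes 10 fell and 0 rose (62.5%, with 1.08% lower over all tested genes), and their sum was 22.67, 19.001 and 27.53 CPM in old libraries, against 264, 22.4 and 367 CPM in young libraries. The deep young library stood within the old range. H1foo, the linker histone of oocytes, had no count in the old libraries, against 35.8, 0 and 68.2 CPM in young libraries, at least 77.3-fold lower in old pools. Gdf9, a growth factor secreted by oocytes, held 0.758, 1.04 and 1.44 CPM in old libraries, against 48.2, 0.08 and 65.5 CPM in young libraries (log2 -4.87, SE 1.02, adjusted p = 0.00634). Gdf9 stood at log2 3.59 with the deep young library alone, the opposite sign, and did not pass (adjusted p = 0.122). Bcl2l10, a relative of BCL2 abundant in oocytes, separated the groups without overlap, with 1.601, 1.48 and 1.54 CPM in old libraries, against 37.2, 3.82 and 42.3 CPM in young libraries (log2 -4.00, SE 0.67, adjusted p = 0.00138), but did not pass against the deep young library alone (log2 -1.34, adjusted p = 0.245). Bmp15 and Tcl1 were lower 110-fold and 171-fold, with counting intervals of 18.5 to 4458 and 29.4 to 6869. With the deep young library alone 0 of 15 members with a value passed in edgeR (unadjusted p under 0.05 in 1 higher and 1 lower member), and without it 11 fell. Leaving out any 1 old library gave 6 falls and leaving out young replicate 3 gave 4. Among all 189 lower genes 32.3% were at 10 CPM or more and at least 10 times higher in the series' knockout-labelled oocytes than in granulosa pools, against 0.556% of the higher genes and 5.65% of all tested genes.

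**Figure D5:**
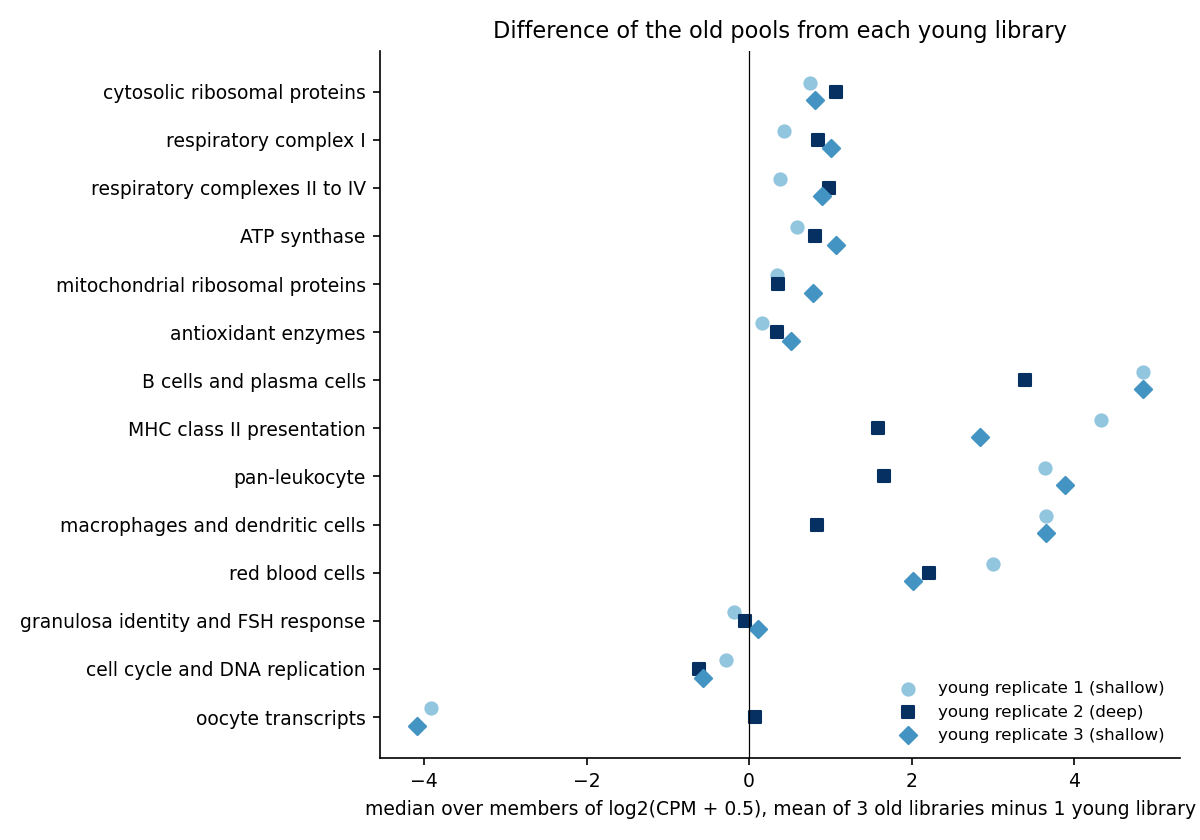
For each gene list the horizontal axis gives the median over members of log2(CPM + 0.5), mean of the 3 old libraries minus 1 young library, with circles and diamonds for the shallow young replicates 1 and 3 and squares for the deep young replicate 2. The ribosomal list lies between 0.75 and 1.07 for all 3 young libraries. The oocyte list lies at -3.92 and -4.09 for the shallow and 0.08 for the deep library, and the macrophage list at 3.65 and 0.83. Over all tested genes, not drawn here, the medians are 0.345, 0.081 and 0.229 for young replicates 1, 2 and 3.

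Some falls did not depend on the shallow young libraries. Car12, the membrane-bound carbonic anhydrase XII on chromosome 9, held 5.98, 5.29 and 6.95 CPM in old libraries, against 90.8, 29.9 and 62.8 CPM in young libraries (log2 -3.21, SE 0.31, adjusted p = 1.43e-06). Gspt2, a translation termination factor on chromosome X, held 6.32, 7.38 and 5.61 CPM in old libraries, against 41.3, 34.8 and 38.2 CPM in young libraries (log2 -2.55, SE 0.23, adjusted p = 7.30e-07). Dynlt1, a light chain of cytoplasmic dynein, held 13.5, 14.05 and 10.55 CPM in old libraries, against 81.2, 57.1 and 77.8 CPM in young libraries (log2 -2.47, SE 0.20, adjusted p = 1.16e-07). Young replicate 2 lay with the other young libraries in each case, and against it alone the log2 values were -2.32 for Car12, -2.47 for Gspt2 and -2.21 for Dynlt1. Mtfr2, a mitochondrial fission regulator, held 0.169, 0 and 0.103 CPM in old libraries, against 8.26, 6.20 and 16.4 CPM in young libraries (log2 -6.51, SE 0.73, adjusted p = 1.58e-05). Dynlt1 has several near-identical copies in the mouse genome and Gspt2 resembles Gspt1, so reads shared among copies make both uncertain. Some other large falls were smaller against the deep young library than without it. Pla2g4c, a phospholipase, was at least 24.4-fold lower and Accsl lower 97.7-fold, with a counting interval of 16.3 to 3976. Both are abundant in the series' old knockout-labelled oocytes, at 2041 and 2778 CPM. With the deep young library alone log2 values were -4.00 for Pla2g4c, -4.41 for Accsl and -1.72 for Apoc1, an apolipoprotein. Each of these calls was lost there, though the sign was kept. Without that library the log2 values were -10.29, -8.78 and -4.64.

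Cell cycle genes leaned lower. Of 34 genes 0 rose and 4 fell (11.8%, with 1.08% lower over all tested genes), 4 of the 34 had values above 0, and the median was -0.62. Ccna2 held 66.2, 55.1 and 55.4 CPM in old libraries, against 84.0, 107 and 96.9 CPM in young libraries (log2 -0.72, SE 0.19, adjusted p = 0.0300), and Ccnb1 120, 151 and 125 CPM in old libraries, against 222, 254 and 177 CPM in young libraries (log2 -0.73, SE 0.21, adjusted p = 0.0482). Both cyclins drive entry into mitosis, and both separated the groups without overlap. Bub1 and Bub1b, of the spindle checkpoint, fell by 0.89 and 1.29 on the log2 scale. Bub1 stood at -1.42 with the deep young library alone and at -0.32 without it (adjusted p = 0.549). The list median was -0.28, -0.61 and -0.56 against young replicates 1, 2 and 3, with 0.345, 0.081 and 0.229 over all tested genes. The count of falls was 4 with the deep young library alone, 7 under the other scaling, 0 without old replicate 1, 0 without old replicate 2 and 9 without old replicate 3. It was 7 without young replicate 1 and 2 without young replicate 3. Of the 4 calls, none held without old replicate 1 or 2.

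Whether age acted differently under the knockout label than in wild type was tested as the difference of both age effects. Of 17558 genes 24 (0.137%) passed, 6 above and 18 below 0, and 15 of them had also passed the age comparison. Dynlt1 had the lowest adjusted p (difference in log2 -2.61, SE 0.29, adjusted p = 4.07e-05), with 12.7 ± 1.88 CPM in old and 72.0 ± 13.04 CPM in young knockout-labelled pools, against 73.0 ± 3.42 CPM in old and 66.2 ± 9.72 CPM in young wild-type pools (SD, n = 3 each). Low Dynlt1 was thus measured in old knockout-labelled pools while the means of the other groups in this comparison lay between 66.2 and 73.0 CPM. Its level in the resveratrol groups is not given here. Gspt2 (difference -1.68, adjusted p = 0.0260) and Mtfr2 (difference -5.12, adjusted p = 0.0168) fell further under the knockout label than in wild type, where Gspt2 averaged 27.9 ± 1.398 CPM in old and 51.3 ± 10.7 CPM in young pools (SD, n = 3 each). Ccr1, a chemokine receptor of myeloid cells, rose under the label, with 20.6, 29.5 and 31.5 CPM in old libraries, against 0, 7.24 and 0 CPM in young libraries (difference 4.03, adjusted p = 0.0259). Thinned to 1 depth, Dynlt1 (-2.34, adjusted p = 0.0679) and Ccr1 (4.70, adjusted p = 0.0837) kept their sign but did not pass. Of the ribosomal, complex I, B cell, class II and oocyte lists 0 members passed this test of the difference in edgeR, with 15, 1, 1, 2 and 0 at an unadjusted p under 0.05. Over all genes 1345 had an unadjusted p under 0.05, and DESeq2 called 90. The count of 24 was 58 without young replicate 1, 41 without young replicate 3 and 278 with the deep young library alone.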

How the data were processed

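The authors deposited gene counts of each library in 1 table, and per the submitters' processing notes the tools named are HISAT2 2.1.0, featureCounts and DESeq2, with the build mm10. Their roles, settings and strand setting are not given in the sources used here. Columns of 169 other libraries in the table were not used. Total counts of the 6 libraries ran from 722075 to 20537935.

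The test was edgeR's quasi-likelihood test (version 4.0.16, run in R 4.3.3, with TMM scaling and filterByExpr with a minimum count of 10). One model held the 18 granulosa pools in 6 groups of 3, and p-values were adjusted by Benjamini-Hochberg over 17558 genes at a threshold of 0.05. Fold changes are old over young. CPM are counts divided by the TMM-scaled total and multiplied by 1e6. A gene with no count in 1 group has its fold given as a bound against 3 counts over the group, and one with 1 to 3 counts a ratio with a 95% counting interval. Library by library differences used log2(CPM + 0.5). Exact permutation of 3 against 3 libraries cannot go below p = 0.1 and was not used. The members and the gene lists were chosen with earlier results of these data known. Named genes were Tet1, Tet2 and Tet3, the 10 genes that rose most and the 10 that fell most among calls with at least 10 CPM in the higher group and no overlap, up to 4 called members of each list by p, the 6 named genes with the lowest p in the comparison of age effects, and defining markers as the check of the label. Other genes named, such as Rpl29, Rps2, Rps18, Lyz2, Ighm, Ms4a1, Gdf9, H2-Ab1, Trp53, Star, Jun, Jund, Egr2, Zfp36, Hyou1, Manf, Parm1, Hsd3b1, Cxcl1 and Cxcl2, were chosen after their values were seen. Numbered gene models and clone names were not named, and some listed genes are not reported here. Exonic lengths and positions are from GENCODE vM21 (GRCm38), matched by symbol, and promoter sequences from RefSeq (GRCm38.p6). The code was tested on simulated data. Alternatives were another scaling, other filters, DESeq2 1.42.0, the 6 libraries alone, 1 depth, a replicate block, the deep young library alone (a lone library assumed to vary like the other groups) and each library left out in turn.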

Additional observations from a re-analysis of the deposited data

Results flagged for a closer look

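The age effect under the knockout label differed from the age effect in wild type, by the test of that difference in edgeR, for 8 genes that are named here. Values are the difference of both log2 age effects with its adjusted p. Dynlt1 stood at -2.61 (adjusted p = 4.07e-05), Mtfr2 at -5.12, Gspt2 at -1.68 and Ccr1 at 4.03. Vnn1, a pantetheinase, stood at -6.92 (adjusted p = 0.00378). It held 575, 556 and 694 CPM in old and 5.51, 757 and 398 CPM in young knockout-labelled libraries, against 1648 ± 33.96 CPM in old and 8.46 ± 7.35 CPM in young wild-type pools (SD, n = 3 each), so young replicate 1 lay with the young wild-type pools. Adh1, an alcohol dehydrogenase, stood at -7.02 (adjusted p = 0.00916), with 11.6, 7.98 and 12.2 CPM in old and 1.38, 183 and 2.73 CPM in young knockout-labelled libraries, against 168 ± 5.48 CPM in old and 8.09 ± 14.0 CPM in young wild-type pools (SD, n = 3 each). Adh1 rests on young replicate 2, since without it the difference was -1.80 (adjusted p = 0.782). H2-K2, a class I gene that resembles H2-K1, stood at -10.47 (adjusted p = 0.0199). It had no count in young wild-type pools, so its size depends on the prior count, and without young replicate 2 it did not pass (adjusted p = 0.0637). Pdia4, a chaperone of the endoplasmic reticulum, stood at -2.87 (adjusted p = 0.0260), with 268, 248 and 780 CPM in old and 771, 1151 and 988 CPM in young knockout-labelled libraries. Ccr1 did not pass without old replicate 2 (adjusted p = 0.0643). The young wild-type pools were as shallow as young replicates 1 and 3. Thinned to 1 depth, Dynlt1 stood at -2.34 (adjusted p = 0.0679) and Ccr1 at 4.70 (adjusted p = 0.0837), and neither passed, while Vnn1 and Adh1 did. For the other 4 genes the difference at that depth is not given here.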

How the results depend on the processing

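Of the 908 age calls, 638 were shared with the 689 calls under the other scaling, 846 with the 1219 calls of DESeq2 and 396 with the 718 calls against the deep young library alone. The 6 libraries alone gave 104 calls, of which 96 were shared, and 1 common depth gave 353 among fewer tested genes, of which 297 were shared. Leaving out 1 library gave 339 to 1392 calls. The comparison of age effects gave 24 genes, 129 with no filter on low counts, 90 in DESeq2, 278 with the deep young library alone and 21 to 58 when 1 library was left out. Signs turned for Tet2 at 1 depth (log2 -0.39), Tet3 with the deep young library alone (0.22) and without young replicate 3 (range with 1 library left out -0.51 to 0.036), Tcl1, Bmp15, Gdf9, Rpl29 and Vnn1 with the deep young library alone (1.69, 1.596, 3.59, 1.09 and -0.35), Cyp11a1 without that library (0.78, against -0.98 with it alone), and Adh1 without young replicate 2 (range -3.36 to 2.35); the cause was not tested. H1foo stood at 0.00 with the deep young library alone, where neither group had a count. With every library left out in turn 186 higher and 35 lower genes kept their call, and 30 higher and 10 lower kept it under all alternatives. No pairing by replicate number was seen. Deviations from the group means correlated at -0.0946, 0.0817 and 0.0295 between same-numbered old and young libraries. Between differently numbered ones they correlated at -0.154 to 0.112. With 3 pools a group such values cannot exclude a pairing. A replicate block gave 830 age calls, of which 791 were shared, and 27 genes in the comparison of age effects. Depth limits what the 2 shallow young libraries can show below about 4 CPM, and 3 pools a group with no named animal limit what any p-value covers.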

Other observations

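Several cell surface and transport genes that belong to no list above, picked after their values were seen, also separated the groups. Ly6a, the stem cell antigen Sca-1, held 22.2, 24.99 and 51.0 CPM in old libraries, against 1.38, 1.35 and 0 CPM in young libraries (log2 4.72, SE 0.84, adjusted p = 0.00196 in edgeR). Pdpn, podoplanin, held 108, 133 and 77.0 CPM in old libraries, against 8.26, 13.8 and 17.7 CPM in young libraries (log2 2.97, SE 0.42, adjusted p = 0.000500). Ifitm3, an interferon-induced membrane protein, held 116, 115 and 92.8 CPM in old libraries, against 16.5, 31.0 and 12.3 CPM in young libraries (log2 2.22, SE 0.33, adjusted p = 0.000711). Every old library lay above every young one in these 3 genes.

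Slc40a1, the iron exporter ferroportin, was lower in old libraries, with 94.0, 97.6 and 113 CPM, against 344, 359 and 225 CPM in young libraries (log2 -1.62, SE 0.21, adjusted p = 0.000143). The deep young library was the highest of the 6. In wild-type pools Slc40a1 was also lower when old (log2 -0.81, adjusted p = 0.0479), and the age effects did not differ past the threshold (difference -0.81, adjusted p = 0.486).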
